A study of Mus musculus with 12 samples.

Results

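The experiment compared the pallium of mouse embryos in which Emx1-Cre targets both copies of the U11 small nuclear RNA gene with that of heterozygous controls. Members were taken by their titles, which name 4 control embryos and 4 Rnu11 cKO embryos at E13.5, giving 8 of the 12 libraries of the series. All were of strain C57/Bl6, and the tissue was the dorsal telencephalon, which forms the cerebral cortex. Controls carried Rnu11 wt/flx, Trp53 wt/wt and Emx1-Cre, so they were heterozygous for the deletion. The cKO embryos carried Rnu11 flx/flx, Trp53 wt/wt and Emx1-Cre. The remaining 4 libraries, called dKO, carried Rnu11 flx/flx, Trp53 flx/flx and Emx1-Cre, and their levels are given beside the others without a test, because they would share the same controls. Emx1-Cre acts in pallial progenitors and their descendants, a lineage that does not include microglia, blood vessels or meninges. Of 54735 gene symbols per library, 11920 had a mean of at least 1 TPM over the 8 libraries and were tested, of which 10185 are protein-coding. TPM corrects read numbers for transcript length and gives every library the same total.

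U11 is an RNA of the minor spliceosome, the machine that removes a rare class of introns. Together with U12 RNA and their shared proteins it recognises such an intron, and U11 pairs with the first bases of the intron, the 5′ splice site. The genes that hold minor introns serve basic functions such as replication, transcription, RNA handling and signalling, and dividing cortical progenitors are known to be sensitive to loss of this machine.

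Rnu11 lies on the minus strand at chr4:132270080-132270213 (GRCm38) and is not a protein-coding gene. The RNA is shown because it is what the mutation targets. Capitals mark positions 3 to 7, counted from the 5′ end, the 5 bases that are complementary to part of the minor 5′ splice site consensus AUAUCCUUU.

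Rnu11: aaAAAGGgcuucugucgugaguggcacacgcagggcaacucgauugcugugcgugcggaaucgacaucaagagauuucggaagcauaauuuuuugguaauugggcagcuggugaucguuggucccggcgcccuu

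Rnu11 stood at 674, 521, 724 and 643 TPM in controls 1 to 4 and at 159, 145, 115.4 and 158 TPM in cKO embryos 1 to 4. The groups did not overlap (log2(TPM + 1) difference as deposited -2.14, exact two-sided permutation p = 0.0286, the smallest that 70 assignments allow). The dKO mean was 164 TPM.

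Loss of U11 was accompanied by 3 broad differences in protein-coding genes, beside the p53 targets and short RNAs. Most tested genes of microglia and some of the lysosome were higher in cKO embryos, by up to 1.82 on the log2 scale. Some genes of growing neurons, the cortical hem and vessels were higher by smaller amounts. Most replication-dependent histone genes and a scattered set of single housekeeping genes were lower, as were minorities of the genes of DNA replication (14 of 60), mitosis (17 of 88, with 4 higher) and radial glia (7 of 36, with 1 higher), the last 3 mostly after the shift described next and not as deposited. In all, 946 of 11920 genes (7.94%) were called at an adjusted p under 0.05 in limma after each library was shifted by its median difference from the mean library. Of the 10185 protein-coding genes, 487 (4.78%) were called higher and 349 (3.43%) lower. Without control 3, control 4, cKO 1 or cKO 2 these counts were 231 to 280 higher and 167 to 205 lower, and without cKO 3 they were 346 and 222. Those 2 percentages are the background for the counts of list members below, and every log2 change is on the log2(TPM + 1) scale after the shift unless it is said to be as deposited. For weakly expressed genes the added 1 makes the change look smaller than it is. The 12 largest increases and decreases were named by a rule that asks for groups that do not overlap after the shift, so their separation describes them and supports nothing.

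The direction of many small changes depended on the scaling. As deposited, the median protein-coding gene was 0.25 higher in cKO, and 3554 protein-coding genes (34.9%) were called higher and 97 (0.952%) lower, so 97.3% of calls were higher. When each library was rescaled to an equal protein-coding sum, the median was 0.13 and the counts were 1687 higher (16.6%) and 218 lower (2.14%), so 88.6% of calls were higher. After the median shift 58.3% were higher. Protein-coding genes took 14.6% to 16.3% of the TPM in controls and 16.1% to 19.99% in cKO embryos (exact permutation p = 0.114). The top of that range was cKO 4, and without that embryo the difference in means fell from 1.84 to 0.977 percentage points. The changes below are therefore relative to the median gene. Summed levels of lists are TPM as deposited, without the shift, and can separate where the shifted median does not move. The nuclear respiratory chain list, with a median change of -0.01, summed to 4351 to 4745 TPM in controls and 4918 to 5998 in cKO embryos.

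**Figure D1:**
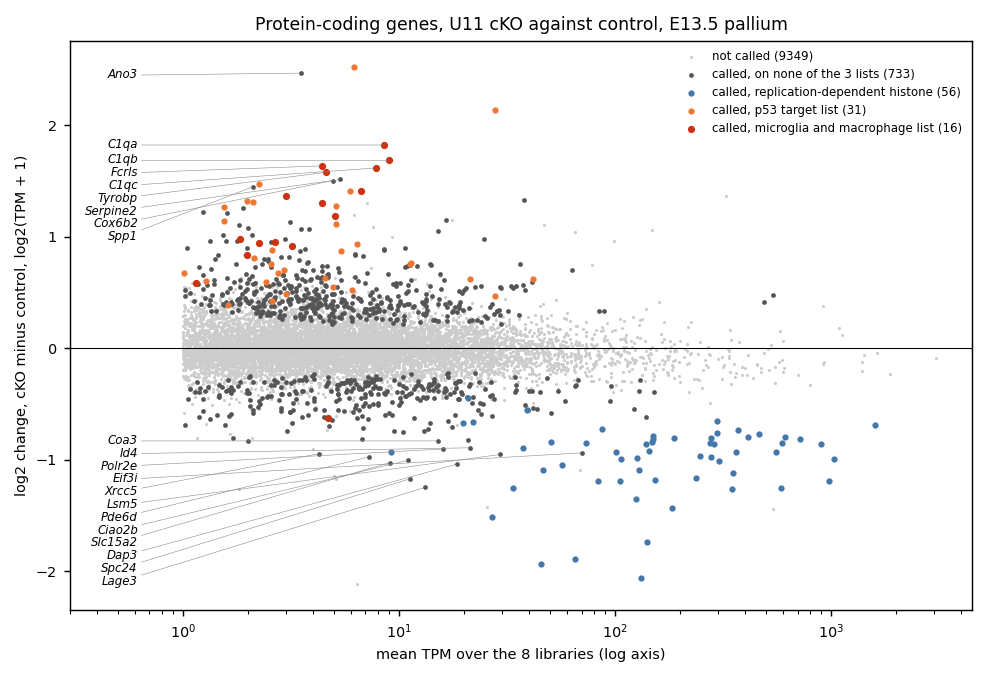
Log2 change in cKO against control (vertical axis, log2(TPM + 1) after the median shift) against the mean TPM of the 8 libraries (horizontal log axis) for 10185 protein-coding genes, with the 9 largest increases outside the p53 and histone lists and the 12 largest decreases outside the histones named. Microglial genes (red) stand among the largest increases, and the 56 called protein-coding histone genes (blue) lie below the line at high levels.

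The tissue labels were checked against markers, and 1 library stood apart. All 10 excitatory neuron markers, all 8 radial glia markers and all 6 intermediate progenitor markers passed the filter, whereas none of 10 neural crest and sensory neuron markers and 1 of 11 thalamus and eye markers (Lhx9) did. The first principal component held 25.6% of the variance and separated the genotypes. The second held 15.8% and set control 1 apart, at 29.7 against -11.7 to -5.37 in the other controls. Alb, the serum albumin gene of liver, stood at 14.3 TPM in control 1 and at most 0.124 TPM in the other 7 libraries. Leaving that embryo out gave 944 called genes in place of 946. By Xist and Y-linked genes, 2 controls and 1 cKO embryo were male, and sex as a covariate gave 996 called genes. In whole tissue, fewer cells of a type and less RNA per cell cannot be told apart. Nothing in the labels says that embryos of a genotype came from separate litters, so p-values measure the spread between these embryos.

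Microglia are the resident macrophages of the brain and enter it from the yolk sac before this stage. Their genes were higher in cKO embryos in a block: 15 of the 18 tested members of the microglia and macrophage list were called higher, 1 lower, and the median log2 change was 1.08, against 0.0025 over all protein-coding genes. The filter helps this count, because 6 of the 18 had a control mean under 1 TPM and passed through their cKO values, 5 of them called higher. Of the 12 members at 1 TPM or more in controls, 10 were called higher. The list's summed level was 31.7 to 39.6 TPM in controls and 98.1 to 140.1 TPM in cKO embryos. With no filter 19 of the 25 listed genes were called higher. As deposited, 16 of the 18 were called higher and 0 lower. Leaving out each embryo in turn gave 14 or 15 higher calls.

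C1qa, C1qb and C1qc encode the 3 chains of complement C1q, the starter of the classical complement pathway, and lie side by side at chr4:136895917-136898803, chr4:136880129-136886187 and chr4:136889804-136893065, all on the minus strand. C1qa stood at 2.79, 2.64, 2.73 and 2.41 TPM in controls and at 15.8, 17.2, 11.7 and 13.2 TPM in cKO embryos. C1qb stood at 3.47, 3.23, 2.65 and 3.15 TPM in controls and at 16.2, 17.8, 11.7 and 14.1 TPM in cKO embryos. C1qc stood at 3.33, 2.69, 2.56 and 2.47 TPM in controls and at 14.2, 15.3, 9.07 and 13.1 TPM in cKO embryos. Every cKO embryo lay above every control for all 3, and cKO 3, the lowest of its group, still had over 3 times the control mean. The log2 changes were 1.82 ± 0.119 (SE), 1.69 ± 0.124 and 1.62 ± 0.135 (limma adjusted p = 0.000116, 0.000195 and 0.000338). The dKO means were 3.86, 4.50 and 4.11 TPM.

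Receptors and adaptors of the same cells rose alongside. Fcrls, an Fc receptor-like gene typical of microglia, stood at 1.44, 1.36, 1.04 and 1.30 TPM in controls and at 7.62, 9.13, 5.81 and 7.52 TPM in cKO embryos (log2 change 1.64, limma adjusted p = 0.000138). Tyrobp, the adaptor DAP12 that passes signals from activating receptors, stood at 1.93, 1.77, 1.17 and 1.02 TPM in controls and at 7.92, 8.73, 7.21 and 6.96 TPM in cKO embryos (1.58, adjusted p = 0.00051). Neither gene's groups overlapped. Fcer1g (1.31), Aif1, which encodes the microglial stain IBA1 (1.37), Lyz2, lysozyme (1.19), Cx3cr1, the fractalkine receptor (0.98), and Csf1r, the receptor that microglia need to survive (0.59), were called higher too. Aif1, Cx3cr1 and Csf1r passed the filter only through their cKO values, with control means of 0.97, 0.69 and 0.54 TPM. Tissue macrophages of the brain's borders share much of this programme, and Mrc1, the mannose receptor that marks them, rose by 0.84 and Pf4 by 0.91. Of 5 tested genes of border macrophages, a list chosen after the values were seen, 4 were called higher, among them Mrc1, which passed the filter only through its cKO values.

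The exceptions were P2ry12, Ly86 and Sall1. P2ry12, a purine receptor of resting microglia, stood at 1.29, 1.56, 1.68 and 1.58 TPM in controls and at 1.92, 1.45, 1.32 and 2.34 TPM in cKO embryos, and its groups overlapped (log2 change -0.14, limma adjusted p = 0.519). Sall1, a transcription factor of microglia that neural progenitors also express, was called lower (-0.62, adjusted p = 0.0129) after the shift but not as deposited (adjusted p = 0.0766). Ly86 had a change of 0.55 (adjusted p = 0.064). Among the 7 listed markers under 1 TPM, Trem2 averaged 0.248 TPM in controls and 1.38 in cKO, Ptprc 0.286 and 1.17, Laptm5 0.386 and 1.37, and Tmem119 0.493 and 1.01. These 7 were not tested.

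**Figure D2:**
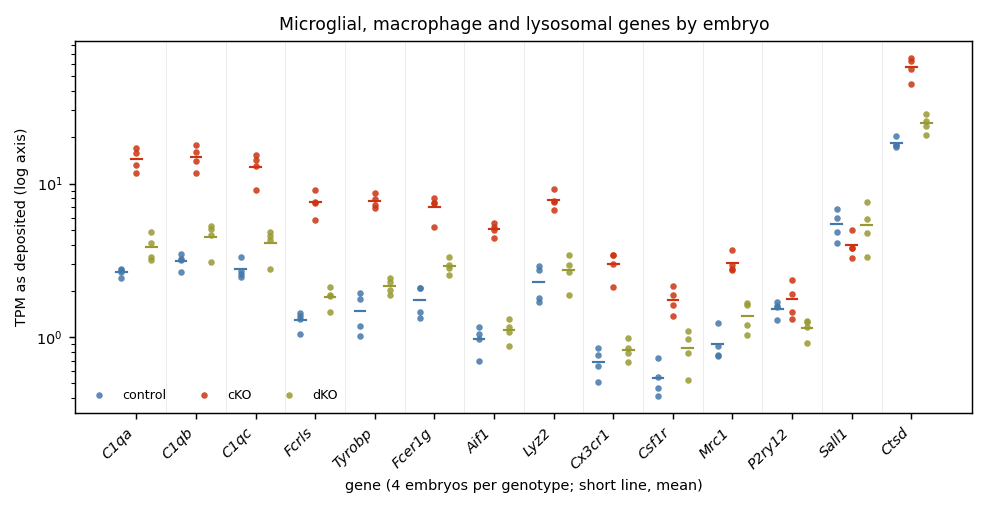
TPM as deposited (log axis) of 14 microglial, macrophage and lysosomal genes in each embryo, 4 per genotype, with the mean as a short line. The cKO embryos lie above the controls for 12 of the genes, the exceptions being P2ry12 and Sall1, and dKO values are shown beside them without a test.

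Lysosomes are the acid compartments in which cells break down what they engulf. Of 41 tested genes for lysosomal proteins, a list chosen after the values were seen, 17 were called higher and 0 lower, with a median log2 change of 0.30. Of these 41, 5 passed the filter through their cKO values, with 3 called. As deposited 31 were called higher, and without cKO 2 the count was 11. Their summed level was 223 to 258 TPM in controls and 353 to 435 TPM in cKO embryos. Ctsd, the acid protease cathepsin D at chr7:142375911-142388038, stood at 20.5, 17.8, 17.4 and 17.7 TPM in controls and at 66.2, 63.3, 44.8 and 55.5 TPM in cKO embryos (log2 change 1.33 ± 0.122 SE, limma adjusted p = 0.000527). No cKO embryo came near the control range, and the dKO mean was 24.6 TPM. Lgmn, the protease legumain (1.15), and Ctsb, cathepsin B (0.90), rose as well, and 6 of 8 tested cathepsins were called. Of the 8 cathepsins, 3 passed the filter through their cKO values, with 2 called. Lamp1, a membrane protein found on lysosomes of all cells, rose less, by 0.32. Most of these genes are active in many cell types, and which cells carried the change was not tested.

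Promoters of genes in this block are shown for their letters upstream of the start site, from RefSeq (GRCm38.p6), on the minus strand in each case. GAGGAAG, the core that the macrophage factor PU.1 is known to bind, was searched on both strands. It occurred in 5 of the 11 called microglial genes with a promoter in the table (45.5%), in 15.0% of promoter-matched protein-coding genes tested and in 13.6% of all 300-base promoters. CACGTG, the core of the element that lysosomal genes are known to share, which reads the same on both strands, occurred in 4 of the 13 called lysosomal genes (30.8%), in 8 of 19 that were not called (42.1%), in 971 of 8082 promoter-matched protein-coding genes tested and in 7.15% of all promoters. Capitals mark these letters in the 250 bases before the RefSeq start of C1qc (chr4:136892915-136893164), Fcrls (chr3:87263525-87263774) and Ctsd (chr7:142387828-142388077), genes chosen because they rose and hold a match. The match lies 194 bases before that start in C1qc and 144 in Fcrls, and the 2 matches in Ctsd begin 245 and 98 bases before it. The GENCODE gene spans reach farther upstream than the RefSeq starts, to 136893065 in C1qc, 87263738 in Fcrls and 142388038 in Ctsd, so the Fcrls match and the nearer Ctsd match lie inside the annotated gene.

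C1qc: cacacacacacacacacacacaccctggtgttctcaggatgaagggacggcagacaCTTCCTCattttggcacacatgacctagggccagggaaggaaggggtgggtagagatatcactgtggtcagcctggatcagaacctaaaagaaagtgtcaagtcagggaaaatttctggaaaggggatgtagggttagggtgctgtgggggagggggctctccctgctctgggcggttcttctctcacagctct

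Fcrls: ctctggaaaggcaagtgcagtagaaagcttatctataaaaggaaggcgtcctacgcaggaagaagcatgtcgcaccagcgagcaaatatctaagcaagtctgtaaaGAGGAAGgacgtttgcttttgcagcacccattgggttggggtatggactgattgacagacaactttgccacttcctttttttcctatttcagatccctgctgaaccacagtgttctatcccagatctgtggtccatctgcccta

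Ctsd: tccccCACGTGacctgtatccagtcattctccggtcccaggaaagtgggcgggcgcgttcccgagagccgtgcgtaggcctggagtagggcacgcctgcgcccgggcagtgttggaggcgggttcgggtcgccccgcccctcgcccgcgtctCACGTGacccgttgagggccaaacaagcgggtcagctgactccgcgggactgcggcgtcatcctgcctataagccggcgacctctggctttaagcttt

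Spp1 and immune surface genes complete the group. Spp1, which encodes the secreted protein osteopontin, stood at 0.551, 0.343, 0.293 and 0.426 TPM in controls and at 5.27, 5.603, 2.15 and 2.28 TPM in cKO embryos. The cKO embryos split into a pair near 5 TPM and a pair near 2 TPM, all above the controls (log2 change 1.45, limma adjusted p = 0.0127). Spp1 passed the filter only through its cKO values. Of 13 tested genes of interferon response and RNA sensing, 4 were called higher and 0 lower. They were Ifitm3 (1.07), Bst2 (0.82), B2m, the light chain of MHC class I (0.58), and Ifitm2 (0.40), all membrane or surface proteins, and 9 were higher as deposited. Without control 3, control 4, cKO 1 or cKO 3 the count was 1, and without cKO 2 it was 2.

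The largest increase of any protein-coding gene outside the p53 and histone lists was not immune. Ano3, a membrane protein of the anoctamin family at chr2:110655201-110950923, stood at 0.180, 0.181, 0.145 and 0.272 TPM in controls and at 6.79, 6.66, 6.67 and 7.36 TPM in cKO embryos. The 4 cKO values span a range of less than 1 TPM (log2 change 2.47 ± 0.0712 SE, limma adjusted p = 8.86e-07). Serpine2, a secreted protease inhibitor, stood at 2.15, 1.42, 1.85 and 2.18 TPM in controls and at 9.26, 8.22, 8.24 and 9.54 TPM in cKO embryos (1.51, adjusted p = 6.04e-05). Cox6b2, an alternative subunit of cytochrome c oxidase best known from testis, stood at 2.52, 1.71, 1.54 and 1.21 TPM in controls and at 8.75, 6.92, 8.41 and 8.54 TPM in cKO embryos (1.504, adjusted p = 0.000588). Ano3 passed the filter only through its cKO values. The dKO means of the 3 genes were 0.342, 2.33 and 2.15 TPM. Cox6b1, the form used in most tissues, did not pass (0.05, adjusted p = 0.776).

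The 12 largest decreases outside the histones did not belong to 1 pathway. Among them are genes of translation, transcription, RNA handling, cofactor assembly, DNA repair and chromosome segregation. All 12 were called lower under all 3 scalings.

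Those with the deepest decreases were Lage3, Spc24 and Dap3. Lage3, on chromosome X at chrX:74351276-74353618, is a subunit of the KEOPS complex that modifies transfer RNA, and stood at 16.6, 16.9, 20.005 and 18.2 TPM in controls and at 8.12, 7.53, 7.81 and 10.6 TPM in cKO embryos (log2 change -1.25 ± 0.0902 SE, limma adjusted p = 0.000173). Spc24, a subunit of the NDC80 complex that ties chromosomes to the spindle, at chr9:21755442-21760303, stood at 14.0, 12.7, 17.3 and 16.1 TPM in controls and at 6.47, 7.45, 6.35 and 9.71 TPM in cKO embryos (-1.17, adjusted p = 0.000468). Dap3, a protein of the small subunit of the mitochondrial ribosome, at chr3:88920803-88951181, stood at 22.6, 22.9, 24.2 and 25.1 TPM in controls and at 12.4, 13.7, 11.5 and 15.7 TPM in cKO embryos (-1.04, adjusted p = 0.000116). In each case cKO 4 was the highest of its group and still below every control. The dKO means were 6.73, 7.04 and 9.69 TPM.

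The cofactor and RNA genes followed the same form. Ciao2b, which helps insert iron-sulfur clusters into enzymes, averaged 14.0 ± 0.904 TPM in controls and 7.93 ± 1.16 in cKO (SD, n = 4 each; log2 change -1.01, limma adjusted p = 0.00016). Pde6d, a carrier of lipid-modified proteins, averaged 9.29 ± 1.05 and 5.25 ± 0.98 TPM (-0.98), and Coa3, an assembly factor of cytochrome c oxidase, 18.3 ± 1.30 and 11.97 ± 1.88 TPM (-0.83). Lsm5 is a subunit of the ring that holds U6 RNA and of the ring that starts messenger RNA decay. It stood at 34.8, 36.9, 40.4 and 33.7 TPM in controls and at 18.1, 22.0, 18.4 and 31.5 TPM in cKO embryos, where cKO 4 lay close to the lowest control (-0.95, adjusted p = 0.00272). It was the only called gene among 13 tested Lsm genes.

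Core enzymes of expression and repair were represented by 1 or 2 subunits each. Eif3i, a subunit of translation factor eIF3 at chr4:129591960-129600648, stood at 83.1, 88.4, 93.4 and 84.0 TPM in controls and at 49.96, 54.8, 47.9 and 63.4 TPM in cKO embryos (log2 change -0.94, limma adjusted p = 0.0003). Of 12 tested eIF3 subunits, it and Eif3k (-0.34) were called after the shift and 1 as deposited. Polr2e, a subunit shared by RNA polymerases I, II and III, at chr10:80035949-80039795, stood at 24.2, 17.1, 18.9 and 18.9 TPM in controls and at 11.3, 11.7, 10.9 and 15.1 TPM in cKO embryos (-0.90, adjusted p = 0.000715). Of 13 polymerase II genes it and Polr2k (-0.75) were called. Xrcc5, the Ku80 protein that binds broken DNA ends, stood at 5.35, 5.40, 5.67 and 5.604 TPM in controls and at 2.46, 3.16, 3.20 and 3.30 TPM in cKO embryos (-0.95, adjusted p = 0.000202). Each of these 3 genes had separate groups, with dKO means of 43.6, 10.9 and 2.27 TPM. Of 80 mitochondrial ribosomal genes 3 were called lower and 0 higher, Dap3, Mrpl50 (-0.34) and Mrps28 (-0.25), a share close to the 3.43% of all protein-coding genes. As deposited 1 was lower and 12 higher, the higher share being below the 34.9% of all protein-coding genes. Without control 2, control 3, cKO 1, cKO 2 or cKO 3 this count of 3 was 1. The eIF3 count was 1 without control 2, control 3, control 4, cKO 1, cKO 2 or cKO 3. These subunit lists were chosen after the values were seen.

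**Figure D3:**
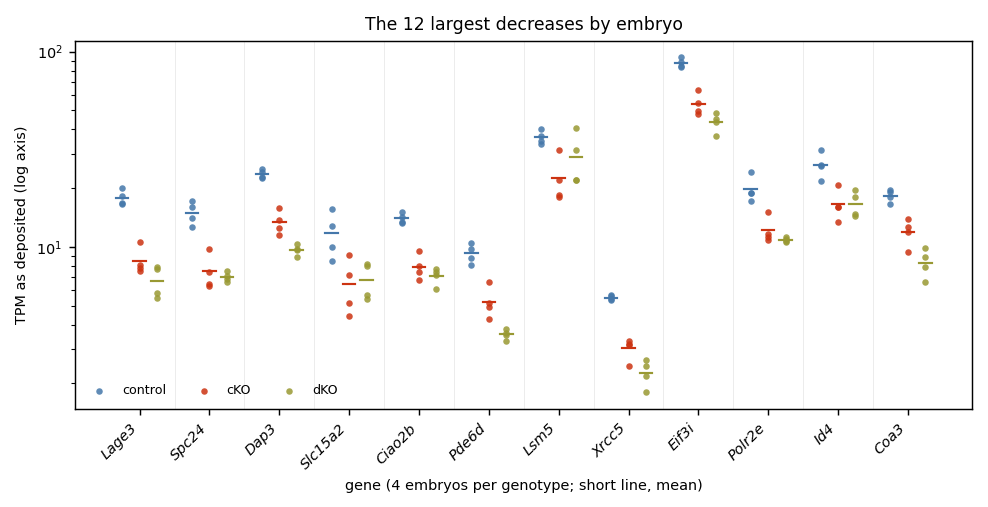
TPM as deposited (log axis) of the 12 largest decreases in each embryo, 4 per genotype, with the mean as a short line. Controls and cKO embryos do not overlap except for Slc15a2, and cKO 4 is the highest cKO embryo for all 12.

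The last 2 of the 12 mark progenitors. Id4, an inhibitor of basic helix-loop-helix factors in radial glia, stood at 31.3, 21.6, 26.1 and 26.2 TPM in controls and at 13.4, 15.9, 16.1 and 20.7 TPM in cKO embryos (log2 change -0.89, limma adjusted p = 0.00134). Slc15a2, a peptide transporter, stood at 12.8, 15.7, 9.95 and 8.47 TPM in controls and at 4.42, 7.19, 5.18 and 9.14 TPM in cKO embryos. Its deposited values overlapped, and only after the shift did every cKO embryo lie below every control (-1.03, adjusted p = 0.0192).

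Genes thought to hold minor introns were on a list whose members were not checked on sequence. Their median moved with the scaling much as that of all protein-coding genes did. Of 65 tested, 4 were called higher and 8 lower after the shift, with a median log2 change of -0.04. As deposited 23 were higher and 3 lower, with a median of 0.21, and after rescaling 12 were higher and 7 lower. Over all protein-coding genes the median was 0.0025 after the shift, 0.25 as deposited and 0.13 after rescaling. Of all protein-coding genes 34.9% were called higher and 0.952% lower as deposited, and 16.6% and 2.14% after rescaling. Besides Spc24, the list members called lower after the shift included Mapk11 (-0.62), E2f5 (-0.62), Uba3 (-0.42), Ccdc28b (-0.36), Vps16 (-0.34) and Ctnnbl1 (-0.30). The higher ones were the kinases Mapk8 (0.60) and Mapk9 (0.43), the sodium channel Scn3a (0.48) and Trappc10 (0.39). The count of 4 was 1 without cKO 2, 2 without control 3, control 4 or cKO 1, and 7 without cKO 4. Each value covers a whole gene, so retained introns cannot be seen in it.

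Of 14 tested proteins of the minor spliceosome, 1 was called higher after the shift, 6 as deposited and 3 after rescaling. The 1 was Ccdc84, a factor of the minor spliceosome. It stood at 3.79, 2.88, 3.13 and 3.03 TPM in controls and at 6.97, 6.92, 6.35 and 8.71 TPM in cKO embryos, with no overlap (log2 change 0.72, limma adjusted p = 0.000669), and averaged 5.80 TPM in dKO. Among 79 other splicing factors only Rbfox2 (0.30) was called, and among 18 genes of nonsense-mediated decay 0 were, by limma after the shift. As deposited 14 and 5 were called higher and 0 lower, and the medians of these lists turned from -0.07 and -0.04 to 0.18 and 0.21. Of 30 genes of RNA decay, Dcp2, the enzyme that removes the messenger RNA cap, rose from 4.04 ± 0.473 to 9.67 ± 1.28 TPM (SD, n = 4 each; 0.83, adjusted p = 0.000626), and the exosome subunits Exosc5 (-0.58) and Exosc1 (-0.36) fell. That list had 1 higher and 2 lower after the shift, with a median of -0.03, and 8 higher and 1 lower as deposited, with a median of 0.22.

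Replication-dependent histone genes are expressed in S phase and supply the histones that package new DNA. Of 67 tested, 57 were called lower and 0 higher, with a median log2 change of -0.90 (-0.65 as deposited, with 52 lower and 2 higher). Their summed level was 17066 to 24513 TPM in controls and 11772 to 15981 TPM in cKO embryos. Hist1h2ab stood at 328, 139, 202 and 169 TPM in controls and at 54.8, 89.4, 54.1 and 91.0 TPM in cKO embryos (-1.74, limma adjusted p = 0.00334). Control 1 was the highest control for Hist1h2ab, and without that embryo the count was 55. Many genes within a histone class are near-identical copies of one another, and the handling of shared reads is not given, so single values are uncertain. Their messengers lack a poly(A) tail, and total RNA was sequenced.

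Some genes that copy DNA were lower relative to the median gene, and many calls rested on the scaling. Of 60 tested replication genes, 14 were called lower and 0 higher, with a median of -0.23, whereas as deposited 2 were lower and the median was 0.02, so the direction of the list flipped. After protein-coding rescaling 10 were lower. Rfc5, a subunit of the clamp loader, stood at 12.8, 10.4, 13.2 and 13.4 TPM in controls and at 9.05, 7.62, 7.44 and 9.99 TPM in cKO embryos (-0.75, limma adjusted p = 0.00194). Pcna, the sliding clamp that it loads, stood at 146, 153, 170.4 and 153 TPM in controls and at 104, 126, 110.2 and 145 TPM in cKO embryos (-0.62, adjusted p = 0.00308). Both sets of groups were separate, and both genes were lower as deposited too. Tk1 (-0.60) and Tyms (-0.54), enzymes of thymidine nucleotide supply, passed after the shift but not as deposited, where their adjusted p-values were 0.149 and 0.0746. Of 64 DNA repair genes 6 were called lower, led by Xrcc5 and the glycosylase Neil3 (-0.55), and 0 higher, with a median of -0.12. As deposited that list turned to 1 lower and 11 higher, with a median of 0.13, and after rescaling it had 3 lower and 4 higher. Without control 3, control 4, cKO 1 or cKO 2 the replication count was 8 in each case. The repair count was 3 without control 1 or cKO 3 and 2 without control 3, cKO 1 or cKO 2.

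Mitotic genes had a similar median. Of 88 tested, 17 were called lower and 4 higher, with a median of -0.23 (0.02 as deposited, again a flip, with 1 lower and 6 higher). The higher calls are a share close to the 4.78% of all protein-coding genes called higher. After Spc24 the lower ones were led by Ncapg of condensin (-0.43), the motor Kif18a (-0.41) and Ndc80 (-0.41), the partner of Spc24. The 4 higher ones were Psrc1 (0.75), Gtse1 (0.66), Cenpw (0.40) and Ckap2 (0.33). Psrc1 stood at 8.76, 7.09, 5.73 and 7.21 TPM in controls and at 14.4, 13.7, 15.1 and 18.2 TPM in cKO embryos, and averaged 5.69 in dKO. Gtse1 stood at 2.23, 1.18, 1.66 and 1.80 TPM in controls and at 3.81, 4.02, 3.70 and 4.76 TPM in cKO embryos, and averaged 1.66 in dKO. Both act on spindle microtubules, and both are known from other work as genes that p53 can induce. The lower count was 4 without control 3 or cKO 1, 5 without cKO 2, 7 without control 2 or control 4 and 10 without cKO 3. The higher count was 2 without control 1, control 2, control 4, cKO 1, cKO 3 or cKO 4.

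Progenitor genes were lower in part. Radial glia are the stem cells of the cortex, and of 36 tested genes on their list 7 were called lower and 1 higher, with a median of -0.26 (-0.0046 as deposited, with 1 lower and 5 higher). Besides Id4, the lower ones were Gas1 (-0.83), which tunes Hedgehog signalling, Hes5 (-0.71), a Notch target, Emx1 (-0.49), Cdon (-0.45), Sox2 (-0.44) and Aldoc (-0.31), and Glul (0.26) was higher. Hes5 stood at 11.8, 6.31, 6.86 and 7.74 TPM in controls and at 4.95, 5.55, 5.10 and 6.48 TPM in cKO embryos, and the ends of these ranges overlap before the shift (limma adjusted p = 0.0167). Abundant glial genes such as Fabp7 (0.21, adjusted p = 0.366) and Vim (0.03, adjusted p = 0.904) were not called. The count of 7 was 1 without cKO 1 or cKO 2 and 3 without control 4 or cKO 3.

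Some genes that mark intermediate progenitors, the cells between radial glia and neurons, were lower in the tissue. Neurog2, the factor that starts neuron formation in the pallium, stood at 20.4, 12.9, 15.0 and 13.9 TPM in controls and at 10.3, 10.5, 9.66 and 12.003 TPM in cKO embryos, with separate groups (log2 change -0.74, limma adjusted p = 0.00382). It was lower as deposited too (-0.49, adjusted p = 0.0238). Neurog1 (-0.69), Sstr2 (-0.46) and Eomes (-0.41) passed only after the shift and, for Neurog1 and Eomes, after rescaling. Of 21 tested genes on the list, those 4 were called lower and 0 higher, with a median of -0.15 that turned to 0.10 as deposited. The count of 4 was 1 without control 3 or cKO 1 and 2 without control 4 or cKO 3. The markers Gadd45g (-0.23, limma adjusted p = 0.189) and Insm1 (-0.16, adjusted p = 0.304) were not called.

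Of 67 tested genes of the Notch, Wnt, FGF and BMP pathways 6 were called higher and 6 lower after the shift, with a median of -0.03. As deposited 25 were higher and 2 lower, with a median of 0.22, and after rescaling 17 and 5. Lower were the Notch targets Hes5 and Hey1 (-0.73), Id4, the Wnt receptor Fzd9 (-0.57), Wnt7a (-0.42) and Wnt5b (-0.39). Higher were the Wnt enhancers Rspo2 (0.89) and Rspo3 (0.76), Id3 (0.68) and Id1 (0.65), which are targets of BMP signals, Dkk3 (0.60) and Wnt3a (0.49). The lower count was 3 without cKO 2.

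Rspo2, Rspo3 and Wnt3a are made at the cortical hem, the signalling centre at the medial edge of the pallium. Rspo2 stood at 6.02, 4.53, 3.83 and 5.43 TPM in controls and at 12.1, 12.2, 10.6 and 13.2 TPM in cKO embryos (limma adjusted p = 0.00142). Rspo3 stood at 9.84, 7.96, 7.69 and 10.3 TPM in controls and at 18.3, 19.6, 16.4 and 21.5 TPM in cKO embryos (adjusted p = 0.00136). The groups were far apart for both, and the dKO means were 6.66 and 11.1 TPM. Of 13 tested hem and choroid plexus markers, these 3 and Enpp2 (0.61) were called higher and 0 lower, with a median of 0.49, and 11 were higher as deposited. Ttr, the main product of choroid plexus, was variable, at 35.04 to 90.7 TPM in controls and 60.4 to 224 TPM in cKO embryos, and was not called (adjusted p = 0.236). The list's sum was 65.2 to 129 TPM in controls and 131 to 318 in cKO embryos. Ttr alone made up 224 of the 318 TPM in cKO 1. The count was 2 without control 3, control 4, cKO 1 or cKO 3. How much of the neighbouring hem and choroid plexus each dissection held was not tested.

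Cajal-Retzius cells, the first-born surface neurons, arise in part from the hem. Reln, their secreted guide for migrating neurons, stood at 10.9, 19.0, 13.4 and 14.9 TPM in controls and at 36.2, 35.4, 37.9 and 30.9 TPM in cKO embryos, so the lowest cKO value was well above the highest control (log2 change 0.98 ± 0.183 SE, limma adjusted p = 0.0142). Of 6 tested markers Reln, Ebf3 (0.41) and Nhlh2 (0.36) were called higher, and 0 lower. Without control 3, control 4, cKO 1 or cKO 2 the count was 1. Calb2 had a change of 0.30 (adjusted p = 0.0846) and Trp73 of 0.20 (adjusted p = 0.406). Nr2f2, a factor of the caudal and medial pallium and of vessels, rose by 0.67 (adjusted p = 0.0231).

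**Figure D4:**
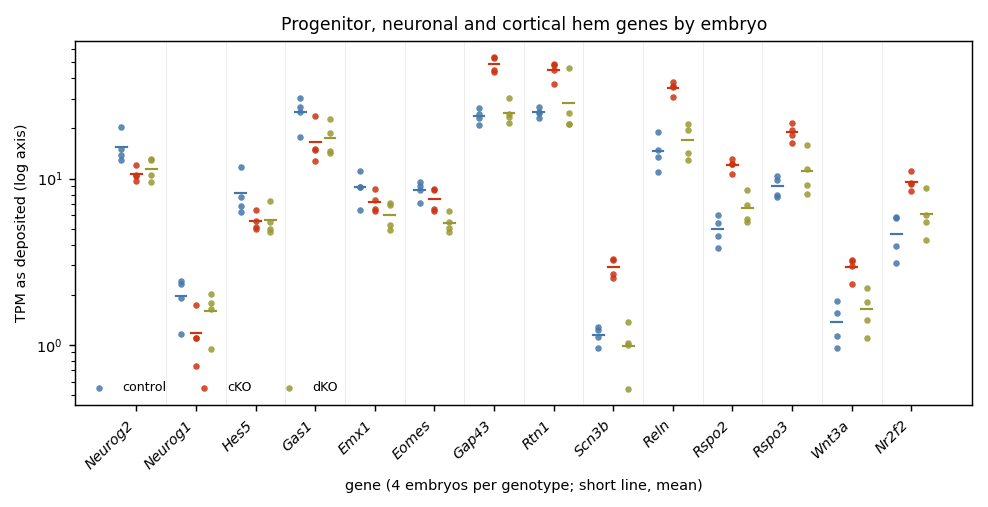
TPM as deposited (log axis) of 14 progenitor, neuronal and cortical hem genes in each embryo, 4 per genotype, with the mean as a short line. The 6 progenitor genes on the left lie slightly lower in cKO than in control and some overlap, whereas the 8 on the right are higher in cKO with no overlap.

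Some genes of growing axons were higher. Of 56 tested genes of the neuronal cytoskeleton and migration 6 were called higher and 0 lower, with a median of 0.19 (0.45 as deposited, with 35 higher). Gap43, a protein of growth cones, stood at 21.1, 26.6, 24.6 and 23.0 TPM in controls and at 53.2, 53.6, 43.8 and 45.2 TPM in cKO embryos (log2 change 0.76, limma adjusted p = 0.00783). Rtn1, a membrane-shaping protein of neurons, stood at 27.0, 23.2, 24.7 and 25.3 TPM in controls and at 48.3, 49.0, 36.8 and 45.2 TPM in cKO embryos (0.56, adjusted p = 0.00794). Neither gene's groups overlapped, and cKO 1 and cKO 2 were the highest for both. The spectrins Sptbn1 (0.40) and Sptan1 (0.34) and the kinase activator Cdk5r1 (0.31) were the other calls beside Reln. The count was 11 without cKO 4. None of 10 excitatory neuron markers was called after the shift, by limma, and 5 were called higher as deposited. Their median was 0.17, and their summed level was 215 to 240 TPM in controls and 279 to 345 in cKO embryos.

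Of 33 tested ion channel genes 4 were called higher and 0 lower after the shift, with a median of 0.09, against 15 higher as deposited and 7 after rescaling. The 4 were Ano3, the sodium channel genes Scn3b (0.62) and Scn3a (0.48), and Cacna2d3 (0.57), an accessory subunit of calcium channels. Of the 33, 5 passed the filter through their cKO values, with Ano3 the 1 called. Of the 28 at 1 TPM or more in controls, 3 were called higher. Scn3b stood at 0.951, 1.23, 1.11 and 1.27 TPM in controls and at 3.27, 3.25, 2.68 and 2.52 TPM in cKO embryos, with separate groups. Of 43 synaptic genes 1 was called, Scg3 (0.41), and of 17 neurotransmitter receptors Gria4 (0.44) was higher and Glrb (-0.60) and Sstr2 lower. As deposited 30 synaptic genes and 11 receptors were called higher and 0 lower, and after rescaling 13 and 8 were higher, with 0 and 1 lower. The channel count was 1 without cKO 1 or cKO 2, and 2 without control 1, control 3, control 4 or cKO 3.

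Among 64 tested genes of axon guidance and adhesion 7 were called higher and 1 lower, with a median of 0.07, against 32 higher and 0 lower as deposited. Sema6a (0.66), Ntm (0.57) and Cntnap2 (0.56) led the higher ones, and Robo3, a receptor for midline crossing, was lower (-0.61). Cntnap2, a neurexin-like adhesion protein, stood at 10.1, 9.69, 9.83 and 9.79 TPM in controls and at 16.2, 18.9, 18.1 and 19.2 TPM in cKO embryos, and the 4 controls lie within 1 TPM of each other (limma adjusted p = 0.000864). The higher count was 4 without control 2, control 3, cKO 1, cKO 2 or cKO 3. Of 33 transcription factors of projection neurons, Ldb2 (0.74) and Lmo3 (0.30) were higher and Nfix (-0.39) lower, against 14 higher and 0 lower as deposited. The calls after the shift are shares close to the 4.78% higher and 3.43% lower of all protein-coding genes. As deposited 34.9% of all protein-coding genes were called higher.

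Some vessel and meningeal genes were higher as well. Of 13 tested endothelial markers 4 were called higher and 0 lower (9 higher as deposited): Kdr, a receptor for VEGF (0.56), Cldn5 (0.42), Esam (0.39) and Pecam1 (0.39). Of these 13 markers, 5 passed the filter through their cKO values, with Esam the 1 called. The endothelial list summed, as deposited, to 26.8 to 35.4 TPM in controls and 45.3 to 60.5 in cKO embryos. Of 6 mural cell markers Rgs5 (0.50) and Myl9 (0.33) were called higher, and of 13 markers of meninges and fibroblasts Igf2 (0.54), Ranbp3l (0.47), Dcn (0.43) and Lum (0.36). Of the 13 meningeal markers, 3 passed the filter through their cKO values, with Ranbp3l the 1 called. As deposited 5 mural and 10 meningeal markers were higher. The meningeal sum was 56.2 to 89.5 TPM in controls and 104.7 to 133 in cKO embryos. Cells of these kinds are outside the Emx1 lineage, and the part of cell numbers in these values was not tested. Of 9 erythroid genes 0 were called by limma, and Hbb-y stood at 1210 to 1912 TPM in controls and 1440 to 1896 in cKO embryos. The endothelial count was 1 without control 2 or cKO 2 and 2 without control 3, control 4 or cKO 3. The meningeal count was 1 without control 3, control 4 or cKO 3, 2 without cKO 1 and 0 without cKO 2.

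Of 35 tested genes of cholesterol and lipid synthesis 7 were called lower and 0 higher, with a median of -0.20 (0.05 as deposited, a flip, with 1 lower and 1 higher). Msmo1 (-0.59), Idi1 (-0.58), Cyp51 (-0.49), Stard4 (-0.47), Hmgcs1 (-0.43), Acat2 (-0.38) and Fdft1 (-0.30) are all steps or carriers of sterol synthesis. Msmo1 stood at 26.9, 26.0, 29.3 and 25.5 TPM in controls and at 18.8, 20.4, 19.4 and 26.4 TPM in cKO embryos, where cKO 4 lay inside the control range as deposited (limma adjusted p = 0.00262). Of 80 ribosomal protein genes 2 were called, both lower, of 75 nuclear genes of the respiratory chain 1, lower, and of 45 heat shock and proteasome genes 1, Hsph1, lower. These calls are 2.5%, 1.33% and 2.22% of the lists, below the 3.43% of all protein-coding genes called lower. As deposited these 3 lists had 3, 14 and 3 higher and 1, 0 and 0 lower, and their medians turned from -0.14, -0.01 and -0.08 to 0.11, 0.24 and 0.17. Hsph1 had a change of -0.22 after the shift and 0.03 as deposited, so its direction flipped.

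Calls among stress and death genes depended on the scaling. Of 43 tested genes of the integrated stress response Sesn2 (1.48), Slc7a11 (0.64) and Ddit4 (0.38) were called higher and Cth (-0.33) lower after the shift, against 17 higher and 0 lower as deposited and 10 and 0 after rescaling. The higher count was 5 without cKO 3. Sesn2 is also a known p53 target, and it passed the filter only through its cKO values. So did 3 of the 43 in all, with Sesn2 the 1 called. Slc7a11, the cystine importer, stood at 1.06, 1.24, 1.15 and 1.19 TPM in controls and at 2.98, 3.25, 2.96 and 2.88 TPM in cKO embryos, with separate groups (limma adjusted p = 0.00316). Of 32 genes of the apoptosis machinery Bax (0.62), Apaf1 (0.52), Cflar (0.47) and Dffb (0.30) were called higher and 0 lower after the shift, against 17 higher as deposited and 10 after rescaling, again with 0 lower. Bax and Apaf1 are p53 targets as well. The apoptosis count was 2 without control 4, cKO 1 or cKO 2.

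Chromatin regulators were called at shares close to the 4.78% higher and 3.43% lower of all protein-coding genes. After the shift 4 of 70 tested were called higher and 3 lower, with a median of 0.00022. The calls as deposited were 22 higher and 0 lower, the higher share being below the 34.9% of all protein-coding genes. Rescaling gave 11 higher and 1 lower. The histone methyltransferases Kmt2a (0.64) and Kmt2d (0.57), the DNA demethylase Tet1 (0.50) and the remodeller Smarca2 (0.35) were called higher. Suz12 (-0.51) and Ezh2 (-0.29), both subunits of Polycomb repressive complex PRC2, and the acetyltransferase Kat6b (-0.41) were called lower. Suz12 stood at 11.99, 9.25, 10.7 and 11.99 TPM in controls and at 8.08, 8.66, 8.69 and 10.6 TPM in cKO embryos, which overlap as deposited and separate after the shift (limma adjusted p = 0.00359). The higher count was 2 without cKO 1 or cKO 2, and the lower count was 1 without control 4, cKO 1, cKO 2 or cKO 4.

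The called genes also differed in size. Genes called higher had a median span of 29618 bp and genes called lower, without histones, 19946 bp, against 25085 bp over all protein-coding genes tested. Their median exon numbers were 8, 7 and 8. Genes called lower outside the histones were X-linked in 6.83% of cases, against 3.29% of those called higher and 3.45% of all tested, in groups with 2 and 3 females of 4. The part of sex in this share was not tested. Of the protein-coding genes, 932 (9.15%) had all 4 cKO values above all 4 controls after the shift and 776 (7.62%) had them below. Of the 487 and 349 called genes, 480 and 346 were separate in this way.

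**Figure D5:**
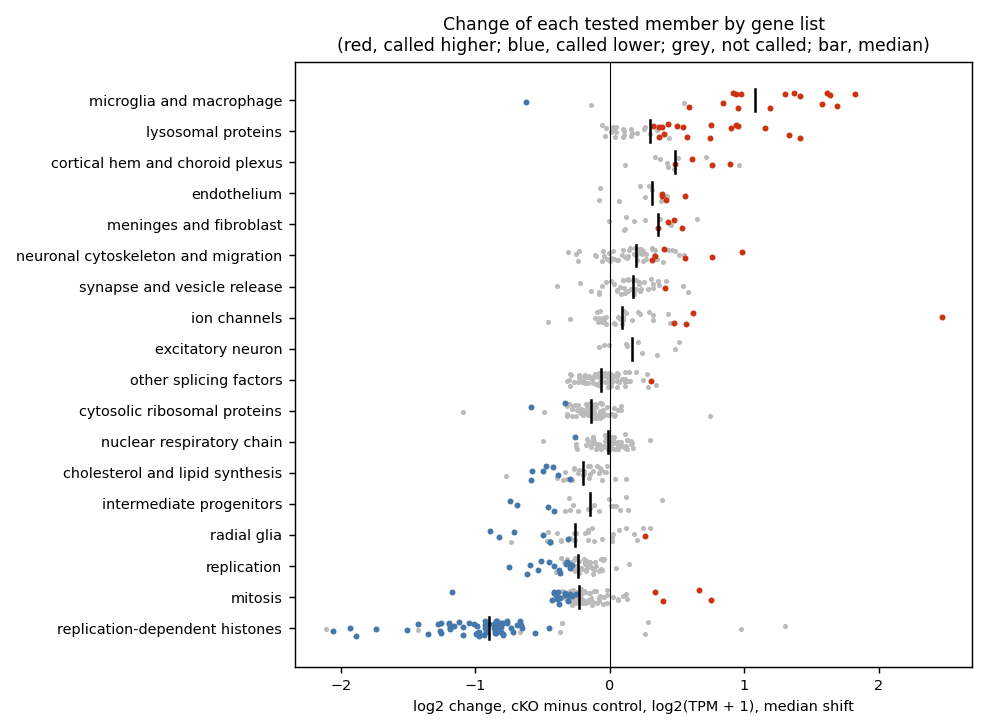
Log2 change in cKO against control (horizontal axis, log2(TPM + 1) after the median shift) of every tested member of 18 gene lists (rows); red points were called higher, blue points lower and grey points were not called, and the black bar is the list's median. Microglial genes lie farthest to the right and histone genes farthest to the left, with medians of 1.08 and -0.90.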

How the data were processed

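Total RNA of the dorsal telencephalon was sequenced from 12 embryos. The authors deposited 1 table of TPM per embryo (length-corrected transcript shares, a unit inferred from the equal column sums). Reads were aligned with HISAT2 to mm10, per the submitters' processing notes; the quantifier and its handling of shared reads are not given in the sources used here. TPM keeps no read depth, so depth is unknown and no counting interval is given. Of 54735 symbols, 54183 matched GENCODE M21 (GRCm38, the same assembly as mm10), which gave gene type and position.

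Values were taken as log2(TPM + 1), with a mean of at least 1 TPM over 8 libraries. Each library was shifted by the median of its differences from the mean library, and genes were fitted with limma 3.58.1 in R 4.3.3 (lmFit, eBayes with trend), called at a Benjamini-Hochberg adjusted p under 0.05. Data were simulated for cKO against control over 11920 genes, with a shift of 0.25 added to every gene of the cKO libraries. After the shift correction, 89 of 100 genes changed by 1 and 66 of 100 changed by 0.5 were recovered, with 8 false calls. Without the correction there were 6679 false calls. That number follows from the simulated setting, because the shift was put in equally for all genes. Whether the calls made as deposited are false was not tested. Replicate numbers were not used as a block, because no label says that they mark a litter. In a check on these same data, same-numbered embryos did not deviate together (correlations -0.0912 to 0.0734).

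The comparison, gene lists and members were chosen with earlier results of these data known, so lists are described by counts and medians and not tested. The lists of lysosomal proteins, cathepsins, border macrophage genes, polymerase, eIF3, Lsm and mitochondrial ribosomal genes were chosen after the values were seen. Named genes are Rnu11, Trp53, the 12 largest increases and decreases among called protein-coding genes with separate groups (outside p53 targets, histones, Y-linked and unnamed genes), and per list up to 4 called members or the most abundant ones; other called members of a list, and markers under 1 TPM, were named after their values were seen. Plots used matplotlib. Some genes that met this rule are not reported here.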

Additional observations from a re-analysis of the deposited data

Results flagged for a closer look

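For every named gene, the distance of the highest or lowest of 4 embryos from the next one was taken as a share of the span of all 4. A share above Dixon's 95% critical value occurred in 13 of 350 groups, fewer than the 17.5 that chance gives at 1 in 20. In 4 of the 13 control 1 was the high embryo of its group: Ctsd (share 0.873, control 1 high at 20.5 TPM), Ebf3 (0.859, control 1 high at 1.45 TPM), Col3a1 (0.891, control 1 high) and Hist1h2af (0.901, control 1 high at 211 TPM).

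Control 2 was low for Tk1, at 16.7 TPM (share 0.883). In the cKO group, embryo 4 was high for Tk1 at 23.6 TPM (0.88), Tyms at 46.0 TPM (0.837), Hey1 at 14.7 TPM (0.868) and Cox6b1 at 317 TPM (0.843). Embryo 1 was low for Xrcc5 at 2.46 TPM (0.838) and Dcn at 9.60 TPM (0.951) and high for Trp73 at 1.99 TPM (0.866), and embryo 2 was high for Ranbp3l at 2.33 TPM (0.949). These shares are on TPM as deposited.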

How the results depend on the processing

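The count of called genes was 946 over all genes and 836 over protein-coding genes. It came to 3962 and 3651 with no centring, 2087 and 1905 after protein-coding rescaling, 2630 and 2190 with no filter on low values (after which the shift is taken over more genes), 595 and 535 with a mean of at least 5 TPM (fewer genes tested), and 81 and 61 with a minimum log2 change of 1. With the replicate number as a block it was 470 and 407, the Rnu11 difference of -2.14 had an exact permutation p of 0.125 within pairs, the smallest 4 pairs allow, and nothing pairs the samples but the number. Leaving out 1 embryo gave 456 to 944 and 398 to 831 genes. The embryos that moved the counts by over 1.5 times were control 3 (556 and 484), control 4 (545 and 479), cKO 1 (485 and 414) and cKO 2 (456 and 398). Leaving out cKO 3 moved only the lower calls that far, from 399 to 253 over all genes and from 349 to 222 over protein-coding genes. Quantile normalization, a pseudocount of 0.1, a fit of 3 groups, no trend and sex as a covariate stayed within 1.5 times.

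Of 137 named genes called, 103 stayed called in the same direction with no centring, 126 after rescaling, 93 with the block, and 81 (without cKO 2) to 118 (without cKO 4) with 1 embryo left out. Hsph1 alone turned, to 0.0273 from -0.22, with no centring; the cause was not tested. Depth is unknown, so genes near 1 TPM are the least certain.
Medians of interneuron, mural and oligodendrocyte markers had no value at a mean of at least 5 TPM.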
